A study of Trichoderma reesei with 12 samples.

Results

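Solitary genes that were 4 to 16-fold lower in light were examined in mycelium of the filamentous fungus Trichoderma reesei. A row of the deposited count table was a member if its mean CPM (a gene's counts scaled to a common library total) was at least 20 in darkness in both strains and its ratio of light to dark mean CPM lay above 1/16 and at or below 1/4 in both strains. In addition, neither the row before it nor the row after it in the table could have a ratio at or below 1/2 in both strains, where a neighbouring row with a dark mean below 5 CPM counted as not lower. This rule found 107 members among 10879 rows. Another 71 rows lay in the same range of ratios but had a lower row beside them, so that 178 rows were in the range in all. The members were chosen by their light and dark CPM, so their fall in light is a description and carries no test.

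Light is a main environmental cue for this fungus, a soil and wood saprotroph used to produce cellulases. Proteins known to act in its light response include BLR1 and BLR2, which act together as a transcription factor complex, and ENV1. Light changes growth, conidiation, secondary metabolism and the formation of plant cell wall degrading enzymes. The SOR cluster is a group of neighbouring genes for the yellow sorbicillin pigments, and sor4, named as its transporter in the title of the study, is the gene deleted here.

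The study asked what deletion of sor4 does to the transcriptome in light and in darkness. The parent strain was QM6aΔku80, and the mutant was QM6aΔku80Δsor4, so that both strains lacked ku80, a gene of non-homologous end joining that is deleted to ease gene targeting. Both grew for 96 h at 28 °C on cellulose in minimal medium, and total RNA of mycelium was sequenced. The groups were ku80 in darkness (n = 2), ku80 in light (n = 2), sor4 in darkness (n = 4) and sor4 in light (n = 4). The labels do not say how many independent transformants the sor4 strain stands for or whether libraries came from separate cultures, so p-values refer only to the scatter of these libraries, which could be technical. All samples carry a treatment protocol that mentions constant darkness; for the light groups, the titles and treatment labels were followed.

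Total counts per library ran from 7844524 to 12027855. The identifiers carry no gene names, and none of them matched the 9116 genes of the reference table (0 matches). The deleted gene, markers of mycelium and the known functions of the members could therefore not be looked up, and members are given by identifier. All 107 members were among the 8939 rows that passed the filter on low counts. In bulk RNA, fewer cells that express a gene and less of its RNA per cell cannot be told apart.

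The members made up 3.04% ± 0.147 (SD, n = 2) of the counts in the ku80 dark libraries and 3.05% ± 0.123 (SD, n = 4) in the sor4 dark libraries. In light they made up 0.436% ± 0.126 (SD, n = 2) in ku80 and 0.421% ± 0.0162 (SD, n = 4) in sor4. The 2 ku80 light libraries lay apart, at 0.346% and 0.525%, while the 4 sor4 light libraries ran from 0.399% to 0.436%. The member TrG0122W weighed heavily on these shares, with 43.1 and 977 CPM in ku80 and 57.7, 443, 674 and 588 CPM in sor4 in light. The members' median deviation from the group mean of log2(CPM + 0.5) was -0.10 in ku80 light replicate 1 and 0.10 in replicate 2. The mean dark CPM of a member, averaged over the strains, ran from 21.7 to 4219.8 with a median of 83.7, and its light CPM ran from 1.98 to 475 with a median of 14. A small number of genes carried most of this signal: 8 members had at least 1000 CPM in darkness and held 53.5% of the members' summed dark CPM, while 77 members had at least 50 CPM. Counts were lowest in light, where 36 members had under 50 counts in at least 1 library and 2 members had under 10.

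**Figure D1:**
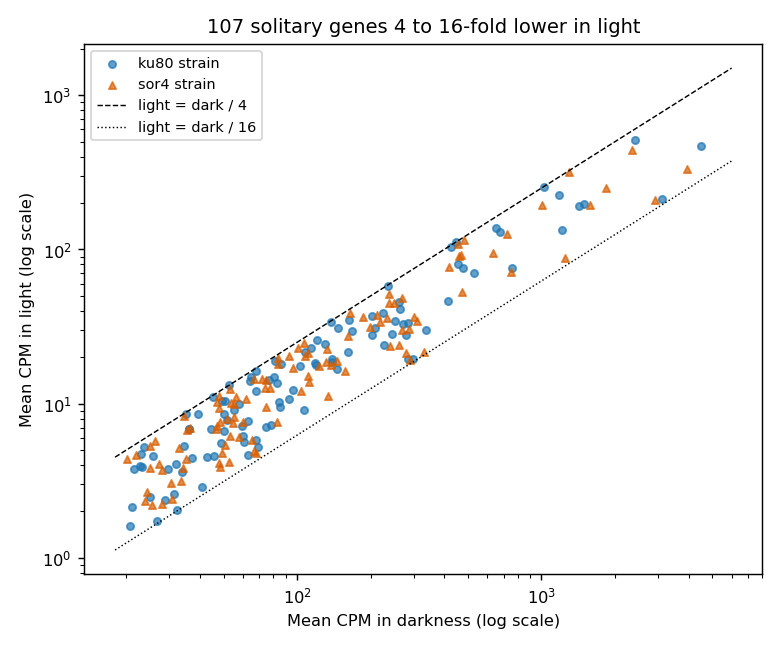
Mean CPM in light (y axis, log scale) against mean CPM in darkness (x axis, log scale) for the 107 members, with a circle for the ku80 strain and a triangle for the sor4 strain; the lines mark a light level of 1/4 and of 1/16 of the dark level. All points lie between the lines because the rule put them there, and dark levels spread from about the rule's minimum of 20 CPM to over 1000 CPM.

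The rule fixed the limits of the fall in light in both strains, so the values below describe the members and do not show that the strains respond alike. The dark over light ratio had a median of 6.7 in ku80 (range 4.01 to 16) and of 6.6 in sor4 (range 4.1 to 15.4). Of the members, 54 fell more in sor4 and 53 fell more in ku80. For 88 members the ratios of the strains differed by less than 1.5 times, and for 2 members they differed by more than 2 times. Light and dark libraries did not overlap in either strain for 103 members, and the exceptions were TrA1002C, TrC0062W, TrD0140W and TrE0246W; of all tested rows, 22.3% had every light library below every dark library in both strains. In the fit over all tested rows, 105 of the 107 members were called lower in light in ku80, where 22.8% of all tested rows were called lower, and 107 in sor4, where 28.8% were; since the rule used these contrasts, nothing is read from any of these counts. The members not called in ku80 were TrE0246W and TrG0122W. Just outside the rule, TrB1154C had light to dark ratios of 0.251 in ku80 and 0.194 in sor4, and TrA0181C had 0.252 and 0.237. At the other limit, TrB0572C had 0.06 and 0.12, and TrE0436W had 0.102 and 0.0577. Just inside, TrD0140W had dark over light ratios of 4.01 in ku80 and 4.22 in sor4, and TrB0432C had 15.2 and 15.1.

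The most abundant member in darkness was TrA1490C, with 4275 and 4733 CPM in the ku80 dark libraries and 3394, 4100.1, 4194 and 4055 CPM in the sor4 dark libraries. In light it had 458 and 487 CPM in ku80 and 379, 376, 313 and 266 CPM in sor4. Every dark library lay far above every light library, and in light both ku80 libraries lay above all 4 sor4 libraries (log2 fold change -0.49 ± 0.15 SE, adjusted p = 0.398 by edgeR). Its gene length in the table is 825 bases, and its dark level of 5115 CPM per kb was also the highest per length among the members. TrC1208W followed, with 3413 and 2789 CPM in ku80 and 2088, 2623, 3226 and 3733 CPM in sor4 in darkness. In light it had 147 and 274 CPM in ku80 and 236, 202, 191 and 205 CPM in sor4. The strains overlapped in both conditions, and the member lay close to the limit of 1/16, with dark over light ratios of 14.7 in ku80 and 14 in sor4.

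TrC0967C was the steadiest of the 5 most abundant members in light. It had 1401 and 1594 CPM in ku80 and 1791, 1427, 1641 and 1435 CPM in sor4 in darkness, and 201 and 196 CPM in ku80 and 204, 166, 200.3 and 203 CPM in sor4 in light. The strains overlapped in both conditions. TrG0476W had 1698 and 1160 CPM in ku80 and 1175, 2098, 2209 and 1868 CPM in sor4 in darkness, and 184 and 199 CPM in ku80 and 290.2, 215, 235 and 254 CPM in sor4 in light. Its 4 sor4 light libraries all lay above the ku80 light libraries, whereas its dark libraries overlapped.

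TrG0122W behaved differently from the other abundant members in light. It had 2546 and 2298 CPM in ku80 and 2962, 2744, 1329 and 2319.6 CPM in sor4 in darkness. In light it had 43.1 and 977 CPM in ku80 and 57.7, 443, 674 and 588 CPM in sor4. Within each strain, replicate 1 in light was far below the others, by 22.7 times between the ku80 libraries and by up to 11.7 times among the sor4 libraries. Its mean light to dark ratio met the rule, but set against the dark mean its single light libraries lay on both sides of the limits. Without ku80 light replicate 2, its log2 fold change in ku80 moved from -2.32 ± 1.15 (SE) to -5.88.

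Per length, TrA0928W (1902 CPM per kb in darkness), TrC0741W (1698 CPM per kb) and TrD0140W (1569 CPM per kb) were also among the 5 highest members. TrA0928W is a short row of 249 bases, with 401 and 553 CPM in ku80 and 453, 375, 533 and 521 CPM in sor4 in darkness. In light it had 46.9 and 104 CPM in ku80 and 56.3, 102, 110.0 and 101 CPM in sor4, so that replicate 1 was again the low library in each strain. TrC0741W had 1170.4 and 1259 CPM in ku80 and 1332, 1327, 1252 and 1092 CPM in sor4 in darkness. In light its ku80 libraries stood at 77.1 and 189 CPM and its sor4 libraries at 98.2, 93, 82.1 and 76.9 CPM, so that the sor4 range lay between the ku80 values except for its lowest library.

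**Figure D2:**
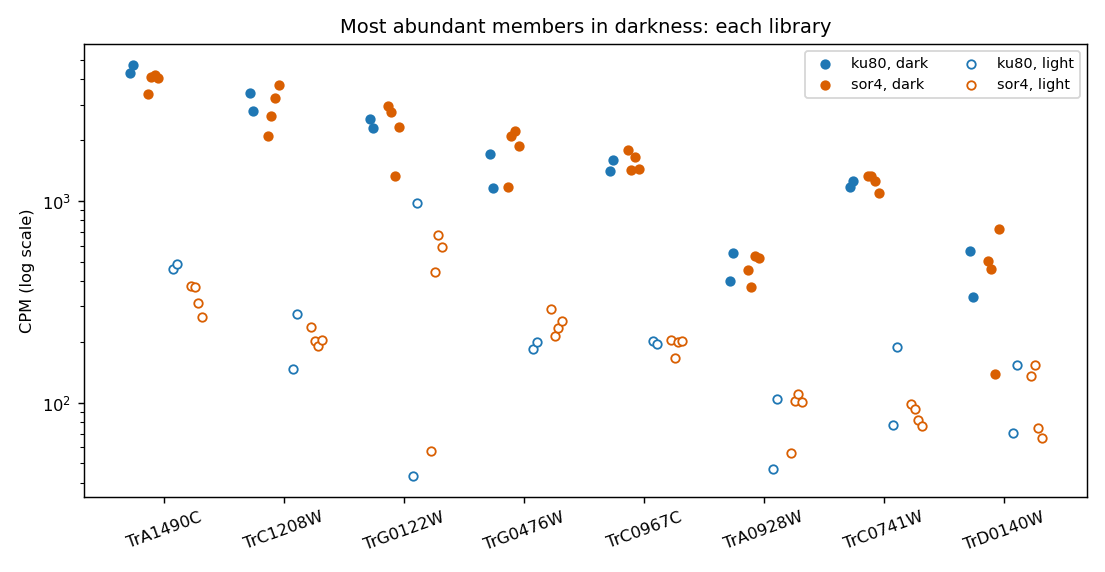
CPM of each library (y axis, log scale) for the 8 members with the highest dark level, by CPM or per kb; filled points are dark libraries and open points light libraries, blue for ku80 and orange for sor4. Dark points lie above the light points of the same strain for 7 of these 8 members, the exception being TrD0140W in sor4, and the light points of TrG0122W run from 43.1 to 977 CPM.

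By length the members were somewhat shorter than other well expressed rows. Their median gene length was 1209 bases (range 204 to 4689), against 1506 bases for the 5352 rows with a dark mean of at least 20 CPM in both strains and 1599 bases for the 71 rows with a lower row beside them. Rows of at most 300 bases made up 4.67% of the members (5 rows) and 2.49% of the 5352 rows, and rows of at least 3000 bases made up 7.48% (8 rows) and 12%. The longest members were TrG0838W at 4689 bases and TrA0909W at 4518 bases, and the shortest were TrA0611W at 204 bases and TrD0221W at 231 bases. The median dark level per length was 72.8 CPM per kb for the members and 54.2 CPM per kb for the 5352 rows. These differences were not tested.

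TrG0838W had 263 and 295 CPM in ku80 and 332, 355, 379 and 259 CPM in sor4 in darkness, and 22 and 33.7 CPM in ku80 and 24.8, 23.9, 20.1 and 17.2 CPM in sor4 in light. TrA0909W had 154 and 169 CPM in ku80 and 131, 178, 139 and 135 CPM in sor4 in darkness, and 18.4 and 24.6 CPM in ku80 and 19.6, 16.9, 22.3 and 16.5 CPM in sor4 in light. The strains overlapped for both long members in both conditions. The shortest member, TrA0611W, had 23.3 and 30.3 CPM in ku80 and 31.8, 23.9, 48.9 and 18.6 CPM in sor4 in darkness, and between 1.4 and 2.97 CPM in the 6 light libraries.

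The members were spread over all 7 letters that the identifiers carry after Tr. There were 23 members under A, 24 under B, 11 under C, 13 under D, 12 under E, 11 under F and 13 under G, or between 6.96 (C) and 12.1 (B) per 1000 rows of a letter. The final letter of the identifier was W for 54 members and C for 53. Members stood in the first or last 5% of the rows of a letter in 15 cases (14%), against 5.75% of the 5352 rows with a dark mean of at least 20 CPM and 16.9% of the 71 rows with a lower row beside them. Row order was taken from the table, and no coordinates were used. The median distance between members of the same letter was 59 places, and 4 pairs of members stood within 3 places of each other.

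Rows beside the members were often below 5 CPM in darkness, which the rule favours because it counts such rows as not lower. Of the 214 neighbouring rows, 106 (49.5%) had a dark mean below 5 CPM in at least 1 strain, against 25.8% of the neighbours of the 5352 rows. Both neighbours were below 5 CPM for 26 members (24.3%, against 7.96%), and neither was for 27 members (25.2%, against 56.4%). Of these neighbours below 5 CPM, 35 beside 33 members themselves had a ratio at or below 1/2 in both strains, at dark levels below the rule's minimum for neighbours. With no such minimum for neighbours, 74 members would remain. The 108 neighbours at 5 CPM or more had a median light to dark ratio of 1.03, with quartiles of 0.783 and 1.22.

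A few neighbours moved the other way: 5 of the 214 neighbouring rows (2.34%) were at least 2-fold higher in light in both strains, against 3.14% of the neighbours of the 5352 rows. Rows below 5 CPM in darkness could not count as higher, and they made up 49.5% and 25.8% of these neighbours. Nothing is therefore read from the difference between these shares. Beside TrD0221W, the row TrD0222C went from 26.4 CPM in darkness to 113 CPM in light in ku80 and from 22.4 to 107 CPM in sor4. TrD0221W itself had 117 and 96 CPM in ku80 and 85.3, 124, 111 and 96.5 CPM in sor4 in darkness, and 2.57 and 15.6 CPM in ku80 and 11.9, 11.7, 11.4 and 13.4 CPM in sor4 in light. Beside TrA0928W, the row TrA0927W went from 13.9 to 56.7 CPM in ku80 and from 16.2 to 53.6 CPM in sor4. Beside TrD1202W, the row TrD1203W went from 124 to 305 CPM in ku80 and from 138 to 329.7 CPM in sor4. In these 3 cases adjacent rows had opposite light responses in both strains.

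Solitary did not mean far from any other lower row. Among the rows 2 or 3 places from a member, 50 of 428 (11.7%) were at least 2-fold lower in light in both strains, against 7.04% around the 5352 rows and 13.7% around the 71 rows with a lower row beside them. At 4 to 6 places the shares were 8.41%, 7.07% and 8.69%. For 40 members a lower row stood 2 or 3 places away, and for 46 members there was none within 6 places. No test was made of these shares, since neighbouring rows are not independent of each other.

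**Figure D3:**
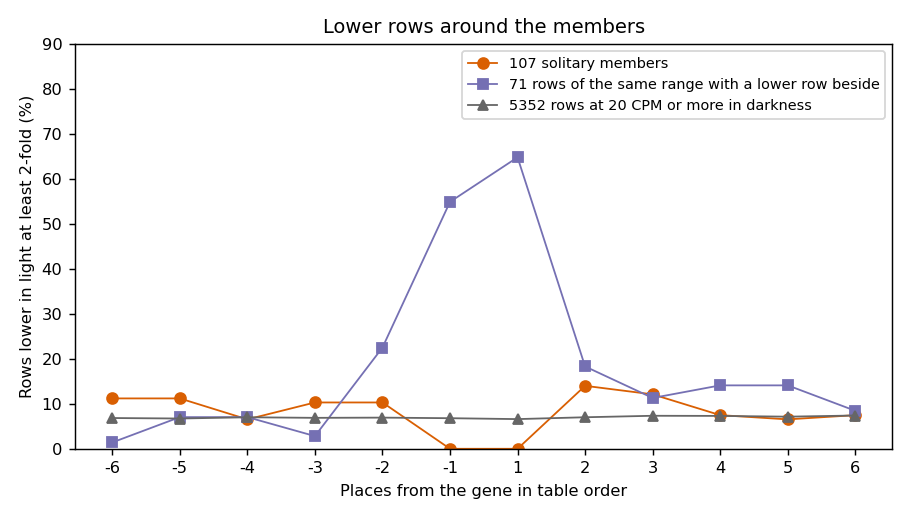
Share of rows at least 2-fold lower in light in both strains (y axis, percent) by distance from the gene in table order (x axis, places), for the 107 members (orange), the 71 rows of the same range with a lower row beside them (purple) and the 5352 rows with at least 20 CPM in darkness (grey). The members stand at 0% at the adjacent places because the rule removed such rows, and at 14% at 2 places after the gene, against 7.01% for the grey line.

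In 4 pairs, members were separated by 1 or 2 rows; TrF0192W and TrF0195W, 3 places apart like TrC1208W and TrC1211C, are the pair not described here. TrA1630C and TrA1632W stood on either side of TrA1631C, a nearly silent row whose lower dark mean was 0.0556 CPM. TrA1630C had 256 and 270.3 CPM in ku80 and 226, 316, 196 and 212 CPM in sor4 in darkness, and 47 and 35.7 CPM in ku80 and 48.8, 44.4, 42.6 and 44.7 CPM in sor4 in light. TrA1632W had 293 and 379 CPM in ku80 and 307, 382, 294 and 258 CPM in sor4 in darkness, and 27.7 and 32.8 CPM in ku80 and 33.2, 26.2, 34.1 and 43.4 CPM in sor4 in light. TrB1266C and TrB1268W likewise stood on either side of the silent row TrB1267C. TrB1266C was among the steadiest members, with 144 and 133 CPM in ku80 and 133, 133, 134 and 151 CPM in sor4 in darkness, and 20 and 19 CPM in ku80 and 17.8, 15.8, 18.9 and 18.3 CPM in sor4 in light. TrB1268W had 210.2 and 195 CPM in ku80 and 236, 260.4, 294 and 251 CPM in sor4 in darkness, and 24.6 and 31.1 CPM in ku80 and 23.1, 24.1, 23.6 and 25.8 CPM in sor4 in light. All 4 sor4 dark libraries of TrB1268W lay above the ku80 dark libraries (log2 fold change 0.34 ± 0.12 SE, adjusted p = 0.482 by edgeR). TrC1211C, 3 places after TrC1208W, had 40.9 and 41.2 CPM in ku80 and 66.2, 32.8, 41.4 and 51.1 CPM in sor4 in darkness, and between 1.53 and 6.19 CPM in light, far below the level of TrC1208W.

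The rule did not use the difference between strains, which was tested. In darkness, no member passed an adjusted p of 0.05 between sor4 and ku80 in edgeR's quasi-likelihood test with Benjamini-Hochberg adjustment over all tested rows, where 0.0336% of all tested rows (3 rows) did, and 5 members had an unadjusted p under 0.05, or 4.67% against 7.75% of all tested rows. In light, no member and no tested row passed (0%), and 4 members had an unadjusted p under 0.05, or 3.74% against 8.17%. The median log2 fold change of sor4 over ku80 was -0.02 over the members and 0.01 over all tested rows in darkness, and -0.00 and 0.00 in light. DESeq2 called 1 member in darkness, TrB1600C (0.935% of the members, against 0.946% of the rows it gave an adjusted p), and none in light, against 0.593%. With limma-voom no member was called in either, against 0.0336% of tested rows in darkness and 0.0224% in light. Without ku80 light replicate 1, edgeR called 2 members in light (TrC0741W and TrD0618W), or 1.87%, against 1.19% of tested rows. Without ku80 light replicate 2 it called 1 (TrD0221W), or 0.935%, against 0.153%. In the fits without a ku80 light library, the other stood alone for its group and took the spread of the rest. The misses with all libraries do not show that the strains were alike. The difference had a 95% interval within 2-fold for 75 members in darkness (70.1%, against 75.2% of tested rows and 93.3% of the 5352 rows). In light it did so for 60 members (56.1%, against 73.1% and 91.1%).

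Few members had libraries that did not overlap between the strains, and their shares were not tested against those of all rows. Every sor4 dark library lay below both ku80 dark libraries for 3 members, or 2.8%, against 6.1% of tested rows, and above them for 7, or 6.54%, against 8.03%. In light every sor4 library lay below both ku80 libraries for 8 members, or 7.48%, against 10.5%, and above them for 9, or 8.41%, against 9.48%.

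TrB1600C, chosen after its values were seen, had the smallest adjusted p among the members in darkness. It had 427 and 422 CPM in ku80 and 554, 656, 658 and 677 CPM in sor4 in darkness, so that all 4 sor4 libraries lay above both ku80 libraries. In light it had 122 and 85.8 CPM in ku80 and 99.7, 92.1, 92.8 and 93.4 CPM in sor4, and the strains overlapped. The log2 fold change of sor4 over ku80 in darkness was 0.56 ± 0.13 (SE), with an adjusted p of 0.233 by edgeR.

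The highest dark strain differences were those of TrE0246W (log2 fold change 0.75 ± 0.85 SE), TrF0195W (0.63 ± 0.46 SE) and TrF1012W (0.62 ± 0.26 SE). TrE0246W had 103 and 173 CPM in ku80 and 53.6, 32, 542 and 307 CPM in sor4 in darkness, a range of 16.9 times within the sor4 group, and its light libraries stood between 33.6 and 39.4 CPM. Its lowest sor4 dark library lay below its light libraries. Without sor4 dark replicate 3 its log2 fold change between strains was -0.09. TrF1012W had 41.5 and 32.5 CPM in ku80 and 68.3, 43.2, 52.9 and 67.4 CPM in sor4 in darkness, with no overlap between strains, and an adjusted p of 0.601 by edgeR. TrF0195W had 42 and 28.5 CPM in ku80 and 36.9, 65.4, 66.4 and 52.5 CPM in sor4 in darkness, with overlap.

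The lowest dark strain differences were those of TrA1002C (-0.88 ± 0.61 SE), TrD0248C (-0.53 ± 0.51 SE) and TrC0858W (-0.45 ± 0.47 SE). TrA1002C had 79.3 and 91 CPM in ku80 and 74.2, 87.3, 10.7 and 18.6 CPM in sor4 in darkness, and between 6.96 and 13.1 CPM in light. Its sor4 dark replicates 3 and 4 were close to its light libraries and replicates 1 and 2 close to the ku80 dark libraries. For TrD0248C and TrC0858W the negative difference turned with 1 library: without ku80 dark replicate 1 it was 0.07 for TrD0248C and 0.02 for TrC0858W.

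In light, TrB1686C had the highest difference between strains. It had 5.14 and 4.21 CPM in ku80 and 10.6, 9.02, 8.68 and 14.4 CPM in sor4, so that every sor4 library was above both ku80 libraries, and its log2 fold change was 1.20 ± 0.40 (SE) with an adjusted p of 0.466 by edgeR. In darkness it had 72 and 53.8 CPM in ku80 and 92, 60.3, 31.6 and 63.7 CPM in sor4, and the strains overlapped. TrB0315W (1.03 ± 0.59 SE) had 1.38 and 2.68 CPM in ku80 and 4.08, 6.01, 3.16 and 2.91 CPM in sor4 in light, also without overlap but at a few CPM. TrE0929C (0.71 ± 0.49 SE) had 2.57 and 2.17 CPM in ku80 and 2.1, 4.83, 4.83 and 3.57 CPM in sor4, with overlap.

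At the other end, TrA0505W had 3.96 and 5.48 CPM in ku80 and 3.34, 2.55, 1.97 and 2.91 CPM in sor4 in light, all sor4 libraries being lower. Its log2 fold change was -0.79 ± 0.22 (SE), with an adjusted p of 0.392 by edgeR, the smallest among the members in light. In darkness it was steady, with 23.3 and 22.7 CPM in ku80 and 24.4, 27.3, 22.4 and 23.1 CPM in sor4. TrC0741W (-0.59 ± 0.25 SE) rested on its split ku80 light pair. Its log2 fold change was -1.12 without ku80 light replicate 1 and 0.18 without ku80 light replicate 2. TrA0775C (-0.52 ± 0.31 SE) had 6.43 and 7.9 CPM in ku80 and 5.81, 2.91, 4.44 and 6.58 CPM in sor4 in light, with overlap.

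**Figure D4:**
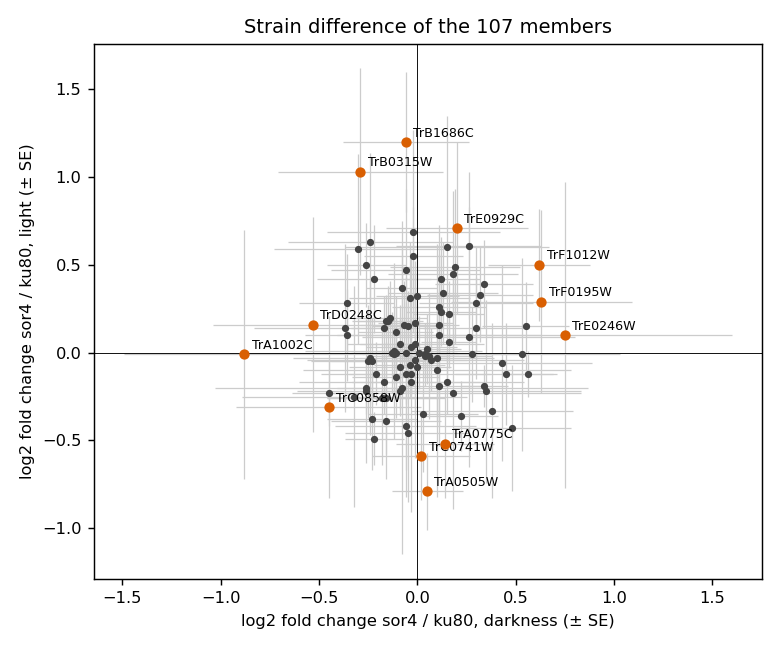
Log2 fold change of sor4 over ku80 in light (y axis) against the same in darkness (x axis) for the 107 members, each with its standard error; labelled orange points are the 3 highest and 3 lowest in each condition. Points gather around 0 on both axes, from -0.88 to 0.75 in darkness and from -0.79 to 1.20 in light.

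The light response itself did not pass edgeR's test for a difference between strains in any member, nor in any tested row (0%), and no member was called by DESeq2, against 0.0448% of rows, or by limma-voom, against 0%. Without ku80 light replicate 1, edgeR called 1 member, TrC0741W (0.935%, against 0.369% of tested rows). In that fit a lone library stood for ku80 in light, with the spread of the other groups. With all libraries, an unadjusted p under 0.05 by edgeR was found for 5 members, or 4.67%, against 6.59% of all tested rows. The rule bounds this difference, since both ratios had to lie between 1/16 and 1/4, and nothing about the members against other rows is read from these counts. The median difference, sor4 minus ku80, was 0.04 on the log2 scale over the members and 0.00 over all tested rows. The 95% interval of the difference stayed within 2-fold for 44 members (41.1%, against 62.2% of all tested rows and 84.4% of the 5352 rows). The highest were TrB0315W at 1.32 ± 0.72 (SE) and TrB1686C at 1.26 ± 0.51 (SE), which fell less in sor4, and the lowest were TrA1155W at -0.91 ± 0.47 (SE) and TrA0505W at -0.85 ± 0.28 (SE), which fell more. TrA1155W had 36.7 and 32 CPM in ku80 and 30.7, 72.9, 48.4 and 42.6 CPM in sor4 in darkness, and 5.34 and 5.23 CPM in ku80 and 3.71, 4.19, 5.03 and 2.63 CPM in sor4 in light. Its strain ranges overlapped in darkness, and in light every sor4 library was lower.

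The spread between replicate libraries was wider for the members than for the 5352 rows, a difference that was not tested. The highest over the lowest of the 4 sor4 dark libraries had a median of 1.7 over the members, 1.62 over the 71 rows with a lower row beside them and 1.27 over the 5352 rows. It was at least 2-fold for 41 members (38.3%, against 8.2% of the 5352 rows) and at least 4-fold for 14 members (13.1%, against 1.59%). Of the 71 rows with a lower row beside them, 29.6% were at least 2-fold apart in the sor4 dark libraries, 21.1% in the sor4 light libraries and 33.8% in the ku80 light libraries, so that a wide spread was not particular to the members. Among the sor4 light libraries it was at least 2-fold for 20 members (18.7%, against 2.3% of the 5315 of these rows with no 0 there), and between the ku80 light libraries for 26 members (24.3%, against 5.12%). The ku80 dark libraries lay closer together, with a median of 1.22 over the members and 1.11 over the 5352 rows. There 3 members (2.8%) were at least 2-fold apart, against 1.33% of the 5352 rows. Ranges over 2 ku80 libraries and over 4 sor4 libraries are not comparable with each other. The part of counting error at the members' low light counts was not tested. Leaving out 1 library moved some of these counts by more than 1.5 times: in darkness 25 members were at least 2-fold apart without sor4 dark replicate 3 (23.4%, against 6.04%) and 26 without replicate 1 (24.3%, against 2.84%). In light 11 were without sor4 light replicate 2 (10.3%, against 1.56%) and 13 without replicate 4 (12.1%, against 1.67%). These alternatives were chosen after seeing the data. The steadiest members in the sor4 dark libraries were TrB1266C and TrD0618W, which had 22.3 and 23.1 CPM in ku80 and 26.9, 24.2, 25.1 and 24.3 CPM in sor4 in darkness.

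A group of 9 members was lowest in sor4 dark replicate 3, at least 2-fold below the next sor4 dark library; they were grouped after their values were seen. They were TrA1608C, TrB0315W, TrC0062W, TrC0858W, TrD0140W, TrD0212C, TrD0248C, TrD1202W and TrE0579W, or 8.41% of the members, against 20 rows (0.374%) of the 5352. Of the 71 rows in the same range with a lower row beside them, 4 were also lowest there in this way, so the pattern was not particular to the members. TrE0579W had 666 and 392 CPM in ku80 and 429, 519.5, 156 and 564 CPM in sor4 in darkness, and 48.8 and 91.9 CPM in ku80 and 98.6, 101, 57.8 and 50.5 CPM in sor4 in light. TrD0140W had 562 and 335 CPM in ku80 and 500.4, 457, 139 and 724 CPM in sor4 in darkness, and 70.8 and 153 CPM in ku80 and 136, 154, 74.6 and 66.5 CPM in sor4 in light. For TrD0140W sor4 dark replicate 3 lay within the range of the sor4 light libraries.

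The same 9 members also shared their order in other libraries, and so did most of the 11 other rows, of the 5352, that were lowest in sor4 dark replicate 3 in this way. All 9 were higher in ku80 dark replicate 1 than in replicate 2, as were 58 of the other 98 members and 45.2% of all tested rows. All 9 were higher in ku80 light replicate 2 than in replicate 1, as were 58 of the other 98 members and 47.1% of tested rows. This difference was small for TrD1202W (1.17 times) and TrD0248C (1.18 times), and for TrD0212C it rested on 8 and 19 counts. In all 9, sor4 light replicates 1 and 2 both lay above replicates 3 and 4, as in 13 of the other 98 members and 22.9% of tested rows. Of the 11 rows that are not members, 11, 9 and 7 had these orders, and 4 of them lay in the same range of ratios with a lower row beside them. Members that share libraries are not independent of each other, so these counts carry no test. The same library, sor4 dark replicate 3, also had the highest dark level of TrE0391W, the most abundant row in light, at 184 CPM, against 2.86, 17.4 and 27.5 CPM in the other sor4 dark libraries and 29.7 and 19.1 CPM in the ku80 dark libraries; in light it had between 34117 and 57245 CPM. Its part in the low values of the 9 members was not tested.

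**Figure D5:**
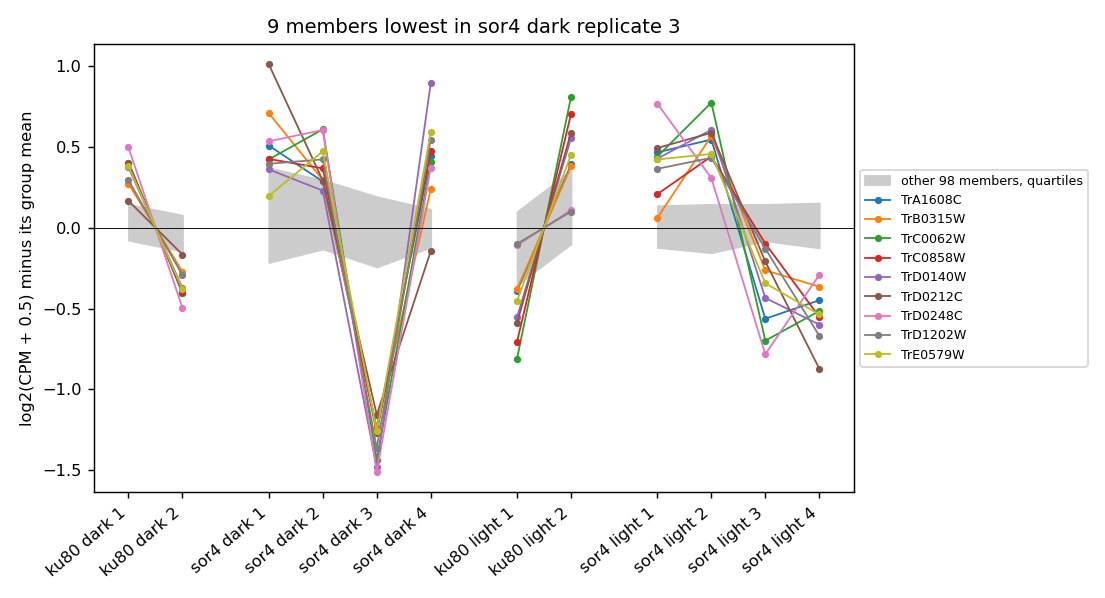
Level of each of the 9 members in each library (x axis) as log2(CPM + 0.5) minus the mean of its group (y axis), with lines joining libraries of a group only for reading; the grey band spans the quartiles of the other 98 members. The 9 lines drop together in sor4 dark replicate 3, and lie above 0 in sor4 light replicates 1 and 2 and below 0 in replicates 3 and 4.

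Other members had their own low library in darkness. TrA0157W, TrB0631W, TrB0691C, TrF0060C and TrG0979W were at least 2-fold lowest in sor4 dark replicate 1 (4.67% of the members, against 97 rows or 1.81% of the 5352). All 5 were higher in ku80 dark replicate 1 than in replicate 2, as were 45.2% of tested rows. The dark difference was small for TrB0691C (1.02 times). All 5 were also higher in ku80 light replicate 2 than in replicate 1, as were 47.1% of tested rows. The order of sor4 light libraries described for the earlier group, found in 22.9% of tested rows, did not hold for any of these 5. The other rows lowest in sor4 dark replicate 1 were not examined for these orders, and no test was made. TrB0691C had 205 and 200.1 CPM in ku80 and 73.1, 304, 318 and 182 CPM in sor4 in darkness, and 6.53 and 67.4 CPM in ku80 and 29.4, 25.6, 44.9 and 35.8 CPM in sor4 in light. TrE0069W and TrF0025W were lowest in sor4 dark replicate 2 by that measure (1.87%, against 0.0934%), and TrE1288C was highest there (0.935%, against 0.149%), at 79.5 CPM against 15.9, 14.5 and 24 CPM in the other sor4 dark libraries. The low library thus differed between members.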

How the data were processed

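Counts per gene in 12 libraries were analysed as deposited by the authors, who prepared rRNA-depleted, stranded libraries, per the labels' protocols. The submitters' processing notes name HISAT2 2.2.1, and the table is named after featureCounts. Genome build, annotation, strand setting and counting version were not stated in the labels, notes or headers used. Reads of overlapping, antisense or near-identical genes could therefore not be told apart. All sample columns were mapped (0 unmapped), and no 2 libraries were counted as 1.

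Groups came from titles and treatment labels. CPM used column totals. Tests used edgeR 4.0.16 in R 4.3.3 with TMM, edgeR's default low-count filter (by group) and 1 fit of 4 groups over 8939 rows, with calls at a Benjamini-Hochberg adjusted p under 0.05; the code was tested on simulated data. DESeq2 1.42.0 and limma 3.58.1 were alternatives, with other filters, other scaling, fewer groups, a replicate block and libraries left out. The common biological coefficient of variation was 0.193. Same-numbered libraries did not deviate together in every pair, so the numbers were not used as pairs.

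The members and the comparison sets were chosen with earlier results of these data known. Members named were the highest by dark level and per kb, those nearest the limits, the extremes of each strain contrast, of the interaction and of sor4 dark spread, the longest and shortest, those with the most light-raised neighbours and the closest pairs. TrB1600C, TrE0579W and the members grouped by their low library were added after seeing values. The row TrE0391W, which is not a member, was also added outside the criteria. Intervals are 95%. No sequence was used.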

Additional observations from a re-analysis of the deposited data

Results flagged for a closer look

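Values of the members named by the listed criteria, and the members' share of counts, were looked through in each sor4 group. TrB1600C, TrE0579W and other members named only after seeing values were not looked through in this way. A library was flagged if it stood apart from the other 3 of its group by Dixon's 95% criterion, and 5 of 70 sets met it. Chance meets this in about 1 in 20 sets. Some members were named for extreme values in these same libraries, so that rate need not hold here. TrC0858W was lowest in sor4 dark replicate 3 at 17.5 CPM, against 55.5 to 59.9 CPM in the others. TrD1202W was lowest in the same library at 11.9 CPM, against 41.5 to 46.1 CPM. TrB1266C was highest in sor4 dark replicate 4 at 151 CPM, against 133 to 134 CPM. In light, TrA0928W was lowest in sor4 light replicate 1 at 56.3 CPM, against 101 to 110.0 CPM, and TrC0967C was lowest in sor4 light replicate 2 at 166 CPM, against 200.3 to 204 CPM. In 0 members did the strain difference have opposite signs in light and darkness without overlap.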

How the results depend on the processing

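The number of members stayed within 1.5 times of 107 under every alternative rule or scaling tried, from 74 with no minimum for neighbours to 125 with a dark minimum of 10 CPM, and 96 to 109 with a library left out. Rows called between light and darkness in ku80 numbered 3810, and 2330 with only those groups fitted. Rows called between strains in darkness numbered 3, against 78 by DESeq2 (1 of them a member, TrB1600C), 1 with only the groups compared, and 1 to 22 with a library left out. The members' median there was -0.02, and -0.04 to 0.07 with a library left out. In light 0 rows were called, against 52 by DESeq2, 2 by limma-voom, 1 with only the groups compared and 0 to 110 with a library left out, among them 0 to 2 members: TrC0741W and TrD0618W without ku80 light replicate 1, and TrD0221W without replicate 2. The members' median in light was 0.08 by limma-voom and -0.07 to 0.18 with a library left out. For the difference of light responses 0 rows were called, against 4 by DESeq2, 1 with no filter and 0 to 34 with a library left out, 0 to 1 of them members (TrC0741W). The members' median was 0.13 by limma-voom and -0.13 to 0.20 with a library left out. Leaving out a ku80 library assumes that the lone library of that group has the spread of the rest. The direction turned for TrE0246W in darkness (-0.03 by limma-voom, and -0.09 without sor4 dark replicate 3 to 1.15 without ku80 dark replicate 2), for TrD0248C (-0.96 to 0.07) and TrC0858W (-0.81 to 0.02), both lowest without ku80 dark replicate 2 and highest without replicate 1, and for TrC0741W in light (-1.12 without ku80 light replicate 1 to 0.18 without replicate 2). Without ku80 dark replicate 1, TrD0140W (log2 fold change -1.65), TrC0062W (-1.73), TrF0195W (-1.84) and TrC0858W (-1.80) were not called lower in light in ku80, nor were TrD0140W (-1.62), TrC0062W (-1.57) and TrC0858W (-1.69) without ku80 light replicate 1; 98 and 99 members were then called, against 105. With only the groups compared 101 were, TrC0062W (-2.18) and TrF0195W (-2.14) being among those lost. In sor4, TrG0122W was not called without sor4 light replicate 2 (-2.43), nor TrE0246W (-1.95) and TrA1002C (-1.84) by limma-voom. The causes were not tested.

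With the replicate block, 1 row was called between strains in darkness, 1 in light and 0 for the difference of responses, none of them members. The members' median difference was 0.11, and TrE0246W in darkness was -0.76. The block left 105 members called in ku80 and 107 in sor4. In light, 36 members had under 50 counts in at least 1 library; the part of these low counts in the strain comparison was not tested.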
